A study of Mus musculus with 8 samples.

Results

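The core of the RAS to ERK cascade was described in the adult mouse median eminence (ME) through 7 genes, Hras, Nras, Braf, Araf, Map2k1, Map2k2 and Mapk3. The genes were chosen by name, as members of the RAS, RAF, MEK and ERK families, and all 7 were found among the 55450 genes of the bulk count table and the 27998 genes of the single-cell table. The study asked whether tanycytes, the Rax+ glia that line the floor of the third ventricle, are neural stem cells and can give rise to tumors. Single cells came from the pooled ME of 10 wild-type female C57BL/6 mice, in 1 library made with a 10x droplet kit. Bulk RNAseq libraries were made from the ME of single mice, also labelled C57BL/6, 3 controls labelled WT and 4 Rax::BrafV600E mutants. The mutants carried Rax-CreERT2, a Cre recombinase made where Rax is expressed and active only after tamoxifen, together with an inducible BrafV600E allele, so that the oncogene is switched on in Rax+ cells and not in the whole tissue. The methods name the substrain C57BL/6N, both for the cell donors and as the background to which the mutant lines were crossed. The labels give 2 months of age for every sample, and the methods place both bulk groups 2 months after tamoxifen. Neither source gives the sex of the bulk mice or the alleles of the controls beyond the label WT.

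Growth factor receptors load RAS proteins with GTP at the cell membrane. RAS-GTP recruits RAF kinases, which phosphorylate the MEK kinases, which in turn phosphorylate ERK, and active ERK drives transcription factors and its own inhibitors. The cascade is regulated mainly through GTP loading and phosphorylation of proteins already present. In the human papillary craniopharyngioma, a tumor of this region, the typical mutation replaces a valine in the activation segment of BRAF with glutamate and leaves the kinase active without RAS.

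The coding stretches that carry these switches are shown because the engineered allele and the steps of the cascade lie in them. They were read from GENCODE M21 transcripts (build GRCm38), 5′ to 3′ on the coding strand, with the codons of the switch in capitals. In Hras the capitals mark glycines 12 and 13 of the GTP-binding loop, in exon 2 at chr7:141192884-141192925 (minus strand).
Hras: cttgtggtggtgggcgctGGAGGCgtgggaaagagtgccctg
In the RAF genes the capitals mark the valine of the activation segment. It is residue 637 of the 804-residue mouse Braf protein, in exon 18 at chr6:39627764-39627802 (minus strand), and residue 451 of Araf, in exon 13 at chrX:20858432-20858470 (plus strand). The Braf valine is the position that human numbering gives in the allele name V600E.
Braf: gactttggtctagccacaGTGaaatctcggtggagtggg
Araf: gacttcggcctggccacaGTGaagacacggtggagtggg
In the MEK genes the capitals run from the first to the last of the serines that RAF phosphorylates, both in exon 6, at chr9:64193711-64193761 (minus strand) for Map2k1 and chr10:81119322-81119372 (plus strand) for Map2k2. In Mapk3, which encodes ERK1, they mark the threonine, glutamate and tyrosine codons of the motif that MEK phosphorylates, in exon 4 at chr7:126763440-126763484 (plus strand).
Map2k1: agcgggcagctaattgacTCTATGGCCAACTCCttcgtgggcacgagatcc
Map2k2: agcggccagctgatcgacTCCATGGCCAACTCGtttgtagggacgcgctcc
Mapk3: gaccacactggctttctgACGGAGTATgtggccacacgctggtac

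The proteins of a family are alike, while few 50-base stretches of their transcripts occur in another gene. These measures differ in kind, and the share of identical bases was not computed. Hras and Nras share 162 of 189 residues, or 85.7%. Map2k1 and Map2k2 share 321 of 392 aligned residues, or 81.9%, and Braf and Araf 375 of 589, or 63.7%. Of the 50-base stretches of each gene's transcripts, at most 1.13% also occurred in another gene, so that few reads could have been assigned to the wrong family member. Braf overlaps Ndufb2 on the other strand over 1.05% of its exon bases, and Araf overlaps Syn1 over 0.138%.

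The 10x library held 990 cells and 9846289 UMIs, and each UMI marks a captured transcript. The UMIs per cell ranged from 3284 to 57119 (median 7831). They were clustered without the 7 genes and without 96 other genes of the pathway, so that none of the genes described here shaped the 11 clusters. Of these, 10 were named after the cell type whose markers they held. The tanycyte-like cluster had 177 cells and 6 of 7 tanycyte markers, with Scn7a its leading gene, but also 3 of 6 astrocyte markers. The ependymal-like cluster had 4 of the 7 tanycyte markers. The VLMC-like cluster had 6 of 6 VLMC markers but also 6 of 6 endothelial and 5 of 6 mural markers. The macrophage- or microglia-like cluster also had 4 of 5 mast cell markers, and the PTC-like cluster 3 of 6 markers of other pituitary endocrine cells. The neuron-like cluster was led by Npy and Agrp, and its median of 31422 UMIs per cell was far above the 7892 of the tanycyte-like cells. A cluster of 23 cells stayed unnamed. Levels are given as UMIs of a gene per 1000000 UMIs of the cluster (CPM), with an exact Poisson 95% interval. All cells came from 1 library, so no test was run across them, and the intervals cover counting error only.

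Hras, a RAS GTPase, had 671 UMIs. It was highest in neuron-like cells, at 175 CPM (153 to 199), and OPC-like cells followed at 86.5 CPM (66.2 to 111). Tanycyte-like cells held 80.9 CPM (68.3 to 95.1), and macrophage- or microglia-like cells were the lowest nucleated cells at 35.4 CPM (22.7 to 52.6). Only the neuron-like cluster stood above its neighbour in this order, and from OPC-like down to macrophage- or microglia-like cells the intervals of adjacent clusters overlapped.

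Nras, the close relative of Hras, had 558 UMIs and another order. It was highest in OPC-like cells, at 150.3 CPM (123 to 182), and next in oligodendrocyte-like cells at 93.3 CPM (71.8 to 119). VLMC-like cells held 86.2 CPM and tanycyte-like cells 56.5 CPM (46.1 to 68.6). Neuron-like cells, which led for Hras, were the lowest nucleated cells for Nras, at 35.2 CPM (25.8 to 46.7). The OPC-like interval lay above that of every other cluster.

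Braf, the RAF kinase that carries the engineered mutation in the bulk mice, was the sparsest of the 7 genes, with 222 UMIs in 165 cells. Tanycyte-like cells had 75 of these UMIs and the highest level, 41.6 CPM (32.7 to 52.1). Neuron-like cells at 33.7 CPM (24.5 to 45.0) and ependymal-like cells at 33.3 CPM (18.2 to 55.9) were not distinguishable from them at this depth. Macrophage- or microglia-like cells had 5 UMIs, or 7.37 CPM (2.39 to 17.2). The intervals of all 10 pairs of adjacent clusters overlapped. When each cell was weighted equally in place of each UMI, neuron-like cells came first, at 37.2 CPM against 36.1 CPM in tanycyte-like cells.

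Araf, the X-linked RAF kinase, had 1106 UMIs and spread more widely between clusters. It reached 366 CPM (335 to 400.4) in neuron-like cells, 171 CPM (134 to 216) in ependymal-like cells and 148 CPM (131 to 167) in tanycyte-like cells. OPC-like cells held 105 CPM, VLMC-like cells 49.9 CPM and macrophage- or microglia-like cells 25.1 CPM (14.6 to 40.1). The ratio of the highest to the lowest nucleated cluster was 14.6 for Araf, and between 3.16 and 5.83 for the other 6 genes.

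Map2k1 encodes MEK1 and had 811 UMIs. It was highest in neuron-like cells, at 185 CPM (163 to 210.1), followed by ependymal-like cells at 109 CPM (80.1 to 146) and tanycyte-like cells at 109 CPM (93.9 to 125). The remaining nucleated clusters ran from 96.2 CPM in oligodendrocyte-like cells down to 58.7 CPM in the unnamed cluster, with overlapping intervals between neighbours.

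Map2k2 encodes MEK2 and had 995 UMIs. OPC-like cells held the highest level, 187 CPM (157 to 222), and tanycyte-like cells the next, 133 CPM (117 to 151). Then 7 clusters lay between 132.6 and 100.2 CPM, from oligodendrocyte-like to neuron-like cells. The OPC-like interval lay above that of tanycyte-like cells and overlapped those of oligodendrocyte-like, ependymal-like, PTC-like and NK- or T-cell-like cells. The unnamed cluster was lowest at 58.7 CPM (32.1 to 98.6).

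Mapk3, the gene of ERK1 at the end of the cascade, had 846 UMIs. Oligodendrocyte-like cells led at 261 CPM (224 to 302), and the unnamed cluster, at 222 CPM (167 to 291), was not distinguishable from them. VLMC-like cells followed at 134 CPM (114 to 156), below both and above tanycyte-like cells at 93.1 CPM (79.5 to 108). Neuron-like cells held 71.8 CPM (58.2 to 87.7), and NK- or T-cell-like cells were lowest at 44.7 CPM (19.3 to 88.1).

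**Figure D1:**
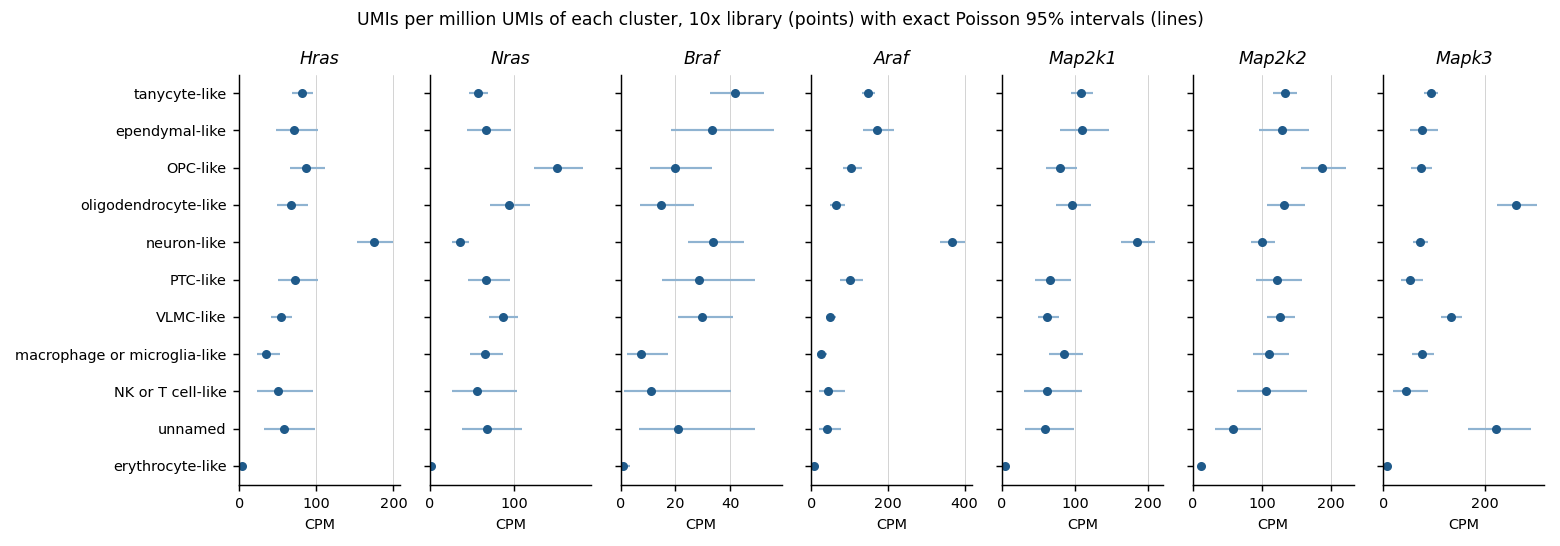
Levels of the 7 genes in each cluster of the 10x library, in UMIs per 1000000 UMIs of the cluster (CPM) on linear axes that differ between genes. Points are levels and lines are exact Poisson 95% intervals. Neuron-like cells stand apart for Hras (175 CPM), Araf (366 CPM) and Map2k1 (185 CPM), OPC-like cells for Nras (150.3 CPM), and oligodendrocyte-like and unnamed cells for Mapk3 (261 and 222 CPM). Map2k2 is highest in OPC-like cells (187 CPM), with an interval that overlaps those of 4 other clusters.

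Erythrocyte-like cells, which are expected to make little messenger RNA other than globin, held between 0.951 CPM of Braf and 11.4 CPM of Map2k2, and served as the level that free RNA can give. The share of tanycyte-like cells with a UMI was 27.1% for Braf (20.7 to 34.3, exact Clopper-Pearson interval) against 0.826% of erythrocyte-like cells, at median depths of 7892 and 7707 UMIs. For Araf these shares were 76.3% (69.3 to 82.3) and 5.37%. For Nras they were 39.5% (32.3 to 47.2) and 1.65%. Those of the other 4 genes lay between 52.5% and 63.3% of tanycyte-like and between 2.89% and 9.92% of erythrocyte-like cells. All 7 genes were thus detected in tanycyte-like cells above that level. With every cell thinned to 3000 UMIs, the share with Braf was 5.65% in tanycyte-like and 0.413% in erythrocyte-like cells. The thinned shares of neuron-like (10.2%), ependymal-like (10.2%), VLMC-like (10%), oligodendrocyte-like (9.09%), OPC-like (8.33%) and unnamed cells (13.0%) lay above that of tanycyte-like cells. The thinned shares came from a single random draw and have no intervals, and some rest on few cells, such as the 23 of the unnamed cluster. They cannot show that the order differs from that of the CPM, where tanycyte-like cells came first. No order of Braf between these clusters is read.

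The members of a pair did not keep a fixed proportion across clusters. The share of Hras among the UMIs of Hras and Nras was 83.3% (78.4 to 87.4) in neuron-like cells, 58.9% (52.5 to 65.1) in tanycyte-like cells and 36.5% (29.2 to 44.3) in OPC-like cells. The intervals of these 3 clusters do not overlap. Macrophage- or microglia-like cells (35.3%) and VLMC-like cells (38.5%) were near the OPC-like share. The share of Map2k1 among the UMIs of both MEK genes followed the same order, with 64.9% (59.9 to 69.7), 45.0% (40.2 to 49.8) and 29.8% (23.4 to 36.9) in the same 3 clusters. Erythrocyte-like cells, with 33 UMIs of both genes, were lowest at 27.3% (13.3 to 45.5).

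Araf gave more UMIs than Braf in every cluster, and its share of both was 91.6% (88.9 to 93.8) in neuron-like cells, 78.1% (73.4 to 82.4) in tanycyte-like cells and 62.6% (52.3 to 72.1) in VLMC-like cells. A share can also depend on how well the 3′ end of each gene is captured, so the comparison is that of the same share between clusters.

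**Figure D2:**
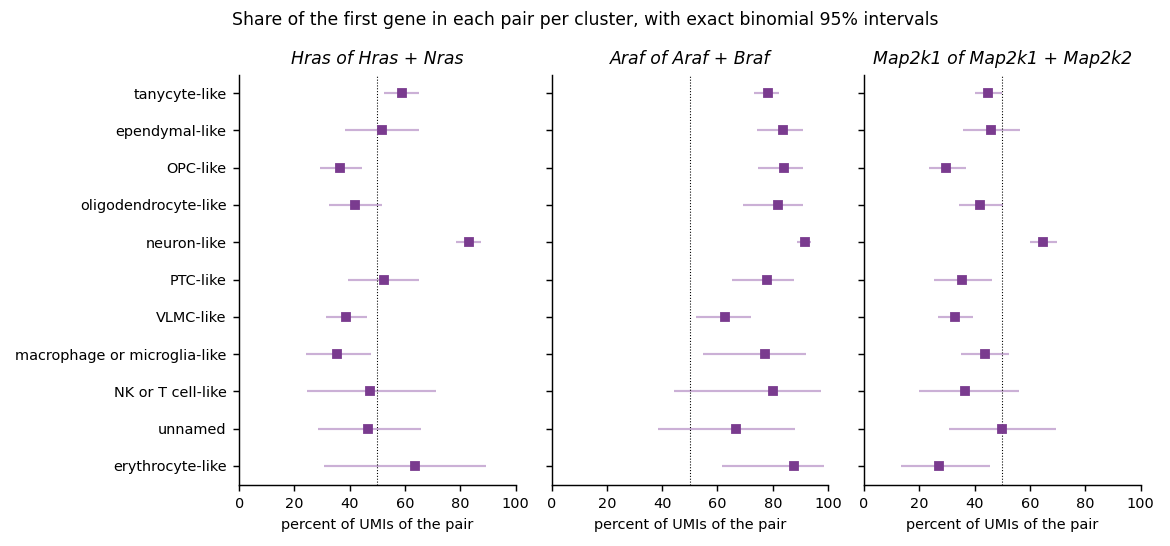
Share of the first gene of each pair among the UMIs of both, per cluster, in percent, with exact binomial 95% intervals as lines and equal shares as the dotted line. The Hras share is 83.3% in neuron-like, 36.5% in OPC-like and 35.3% in macrophage- or microglia-like cells, and the Map2k1 share is 64.9% in neuron-like, 29.8% in OPC-like and 27.3% in erythrocyte-like cells.

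For all ratios and 2-fold limits of tanycyte-like against other cells, 1 CPM was added to both levels. Against the other 571 nucleated cells pooled, tanycyte-like cells held Braf at a ratio of 1.67 (41.6 against 24.4 CPM), the largest of the 7 genes in this comparison. The intervals of these levels, 32.7 to 52.1 and 20.6 to 28.7, do not overlap, but they cover counting error only. The Braf UMIs of tanycyte-like cells came from 48 of 177 cells. After thinning, their share with Braf, 5.65%, lay below that of neuron-like, ependymal-like, VLMC-like, oligodendrocyte-like, OPC-like and unnamed cells. It lay above that of PTC-like (3.70%), NK- or T-cell-like (3.23%) and macrophage- or microglia-like cells (1.23%). The Braf ratio is therefore not read as a higher level in tanycyte-like cells. Nras had the smallest ratio, 0.746 (56.5 against 76.1 CPM), again without overlap of the intervals. Hras at 0.928, Mapk3 at 0.836, Map2k1 at 1.06, Araf at 1.07 and Map2k2 at 1.08 lay between them. No member was at least 2-fold higher or lower, with a median ratio of 1.06. Among all 11024 genes with at least 50 UMIs in these cells, 9.72% were at least 2-fold higher and 18% at least 2-fold lower, with a median of 1.02. Neuron-like cells were 49 of the 571 cells and gave 22.5% of their UMIs. Against the 522 cells without them, an alternative chosen after the values were seen, Araf had the largest ratio, 2.03 (148 against 72.6 CPM), and Braf followed at 1.87. Map2k1 was then at 1.39, Hras at 1.31, Map2k2 at 1.02, Mapk3 at 0.759 and Nras at 0.646. In this comparison 1 of the 7 genes, Araf, was at least 2-fold higher and 0 were lower, against 10.9% and 16.3% of 10323 genes. The order of the ratios thus depends on whether neuron-like cells are among those compared.

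Relatives of the RAS genes were sparser. Mras had a ratio of 1.93 (46.5 against 23.6 CPM), or 2.82 without neuron-like cells. It reached 50.1 CPM in neuron-like and 49.96 CPM (30.9 to 76.4) in ependymal-like cells, so its level was not particular to tanycyte-like cells. Rras2 was highest in OPC-like and oligodendrocyte-like cells, at 80.8 and 72.9 CPM, and held 21.6 CPM in tanycyte-like cells. Its 57 UMIs in OPC-like cells came from 15 of 60 cells, and its 50 UMIs in oligodendrocyte-like cells came from 5 of 44, so that the latter level rests on few cells. Rras had 75 UMIs in the library, with 9.97 CPM in tanycyte-like cells.

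The other genes of the pathway are read against the same 9.72% and 18% of all genes. Without neuron-like cells, they are read against 10.9% and 16.3%. Of 10 measured RAS GTPase-activating proteins and RAF inhibitors, which switch RAS off or hold RAF back, 4 were at least 2-fold higher and 0 lower, Rasa2, Rasal2, Dab2ip and Spred2. Of 14 genes listed as adaptors and RAS exchange factors, 0 were at least 2-fold higher and 8 lower. Rasgrf1 (5.54 against 61.1 CPM) and Ptpn11 (37.7 against 79.8 CPM) were among the 8. In this list, the exchange factors are those that load RAS with GTP. Without neuron-like cells, 9 adaptors and exchange factors had enough UMIs and 3 were lower, Ptpn11 among them. Rasgrf1 was not among the 9, and its levels were then close, at 5.54 against 6.74 CPM. Of the 10 inhibitors, 4 were then higher and 1 lower, with Rasal2 at a ratio of 1.95. Scaffolds and chaperones had 2 of 17 higher, Ksr1 (39.3 against 6.06 CPM) and Iqgap1 (119 against 49.5 CPM), and 2 lower. Of 12 ERK output genes, 3 were higher, Dusp6 (226 against 71.2 CPM), Etv5 (39.9 against 14.0 CPM) and Epha4 (42.7 against 14.0 CPM), and 4 were lower. Spry4 was one of the lower genes, at 5.54 against 15.996 CPM. Enzymes of RAS lipid processing had 1 higher and 0 lower of 8, and kinases downstream of ERK 0 higher and 1 lower of 5. Kinases of the other MAPK cascades had 1 higher and 1 lower of 11. Without neuron-like cells, lipid processing had 0 higher and 2 lower of 8, and ERK output genes 3 higher and 5 lower of 12. Kinases of the other MAPK cascades then had 2 higher and 1 lower of 11, and scaffolds 2 higher and 1 lower of 17. Kinases downstream of ERK kept their counts. The genes named in this paragraph were picked from the lists after their values were seen, other than Dusp6, Etv5 and Spry4. The latter were named by rule, with earlier results of these data known.

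Over the 10 nucleated clusters, the profile of Hras was most like that of Araf among the other 6 genes, with a Pearson r of 0.93 on log2(CPM + 10), and Map2k1 followed Araf with an r of 0.80. Braf and Araf had an r of 0.75. Nras had an r of 0.56 with Map2k2 and of -0.47 with Map2k1. These values describe 10 points that share 1 library, among them clusters of very different depth. Of all genes with at least 500 UMIs, and over all 11 clusters, the profiles most like each member were those of Atp5g1 and Usp34 for Hras (r of 0.99 for both), Gspt1 and Dnajb11 for Nras (0.98 and 0.97), and Clstn1 and Cops7a for Braf (0.97 for both). They were 2210016L21Rik and Snap47 for Araf (0.98 and 0.96), Hax1 and Ddx24 for Map2k1 (0.97 for both), Polr2e and Rbbp4 for Map2k2 (0.98 for both), and Degs1 and Fam177a for Mapk3 (0.91 for both). The low erythrocyte-like cluster weighs on these values, and without it 1 of the 2 genes changed for Nras, Braf, Araf, Map2k1 and Map2k2 and both changed for Mapk3. The highest r was then 0.98 for Hras, 0.92 for Nras, 0.95 for Braf and 0.97 for Araf. For Map2k1 it was 0.89, for Map2k2 0.93 and for Mapk3 0.92. Each r is the highest over all genes compared and rests on few clusters, so that the choice itself favours high values.

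The bulk comparison asked whether transcripts of the cascade differed between tumor and control ME. The 7 libraries held between 4928456 and 13816596 read counts and between 17874 and 40852 detected genes, with the fewest genes in control 3. Xist stood at 134 CPM in mutants 3 and 4 and at 1.499 CPM or less in the other 5 libraries. The Y-linked gene Ddx3y was at 0.536 CPM or less in mutants 3 and 4 and between 69.7 and 118 CPM in the other 5. Summed OPC markers lay between 99.3 and 145 CPM in controls and between 244 and 734 CPM in mutants, and summed VLMC markers between 1171 and 2936 against 454 and 817 CPM. Summed tanycyte markers overlapped, at 711 to 1014 and 775 to 1215 CPM, and none of these 7 markers was at 0. Of them, 3 were higher and 1 lower in mutants at an unadjusted p under 0.05 in edgeR. Summed astrocyte markers also overlapped, with 4 of 6 higher at that threshold. Among all tested genes, 4.23% were higher and 3.89% lower. Markers of pituitary endocrine cells other than PTCs ranged from 706 to 15256 CPM in controls and from 971 to 20161 CPM in mutants. Of the summed marker lists, those of OPC (higher), VLMC and neutrophil (lower) did not overlap between groups. In bulk tissue, fewer cells of a type and less RNA per cell cannot be told apart, and the part of cell makeup, depth and sex in the values below was not tested beyond the alternatives named.

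Braf, the engineered gene, stood at 33.8, 16.8 and 13.0 CPM in controls 1 to 3 and at 13.9, 25.2, 21.7 and 28.4 CPM in mutants 1 to 4. The highest value was that of a control, and the mutants lay within the range of the controls. The means were 21.2 ± 11.1 CPM (SD, n = 3) and 22.3 ± 6.25 CPM (SD, n = 4), for a log2 fold change of 0.07 (95% interval -0.89 to 1.04, adjusted p = 0.980, edgeR's quasi-likelihood test). Counts per gene do not tell the BrafV600E transcript from the wild-type transcript, so these values give total Braf and do not check the labels.

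Araf was at 225, 251 and 349 CPM in the controls and at 255, 246, 191 and 193 CPM in the mutants. The lowest values were those of mutants 3 and 4, the libraries with Xist, and the other mutants lay among the controls. Mutants 3 and 4 also had the fewest read counts (5678941 and 4928456) and the most detected genes (40852 and 39508). Sex, depth and detected genes cannot be told apart in them. The means were 275 ± 65.4 CPM (SD, n = 3) and 221 ± 33.9 CPM (SD, n = 4), and the log2 fold change was -0.31 (-0.92 to 0.30, edgeR adjusted p = 0.830). In the 5 libraries with Xist under 10 CPM it was -0.13, and with detected genes as covariate it was 0.0263.

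Hras was at 16.3, 7.37 and 19.7 CPM in the controls and at 15.2, 18.03, 11.7 and 18.8 CPM in the mutants. All mutants lay between control 2, the lowest library, and control 3, the highest. The log2 fold change was 0.14 (-0.85 to 1.13, edgeR adjusted p = 0.961).

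Nras was at 67.8, 85.7 and 27.0 CPM in the controls and at 62.9, 57.5, 43.8 and 72.0 CPM in the mutants. Again the controls spanned the mutants, here with control 2 at the top and control 3 at the bottom. The log2 fold change was -0.03 (-0.89 to 0.84, edgeR adjusted p = 0.991).

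Map2k1 was at 173, 294 and 237 CPM in the controls and at 298, 276, 213 and 182 CPM in the mutants. The groups covered nearly the same range. The log2 fold change was 0.05 (-0.62 to 0.71, edgeR adjusted p = 0.981).

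Map2k2 was at 177, 158 and 81.8 CPM in the controls and at 185, 172, 128 and 136 CPM in the mutants. Control 3 was low, and the other 6 libraries lay together. The log2 fold change was 0.16 (-0.56 to 0.87, edgeR adjusted p = 0.939).

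Mapk3 was at 42.4, 78.7 and 77.4 CPM in the controls and at 64.2, 50.1, 52.9 and 86.1 CPM in the mutants. Control 1 was the lowest library and mutant 4 the highest. The log2 fold change was -0.06 (-0.79 to 0.67, edgeR adjusted p = 0.976).

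**Figure D3:**
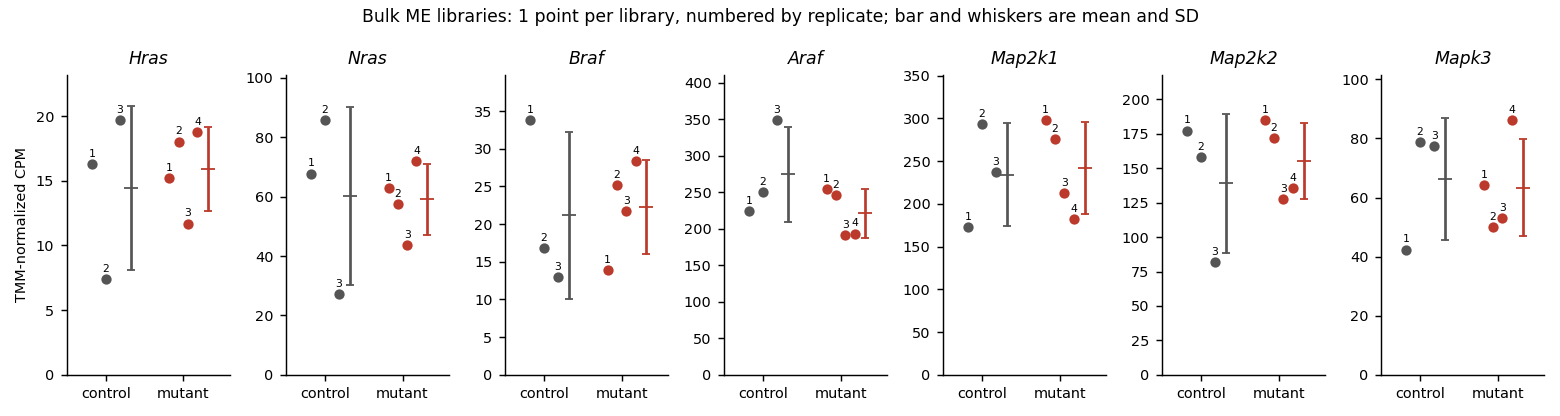
TMM-normalized counts (CPM) of the 7 genes in each bulk library, on linear axes from 0. Points are libraries numbered by replicate, grey for the 3 controls and red for the 4 mutants, and the bars beside them are mean and SD. The groups overlap for every gene, and the controls span all mutants for Braf, Hras and Nras.

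To compare genes, levels were divided by kilobases of exon, with the exons of all annotated transcripts of a gene merged. This length can exceed that of the transcripts expressed, so the order is approximate. The control means ran from Map2k1 at 69.1 ± 17.8 CPM per kb through Araf at 42.01 ± 10.0, Mapk3 at 29.3 ± 9.13 and Map2k2 at 24.6 ± 8.92. Below them came Nras at 11.3 ± 5.64, Hras at 3.87 ± 1.70 and Braf at 1.53 ± 0.798 CPM per kb (SD, n = 3). The mutant means kept this order, from 71.4 ± 15.9 CPM per kb for Map2k1 to 1.61 ± 0.451 for Braf (SD, n = 4). Mapk3 and Map2k2, which are neighbours in this order, differed by less than their SD.

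None of the 7 genes passed an adjusted p of 0.05 in edgeR's quasi-likelihood test, none had an unadjusted p under 0.05, and none passed in DESeq2 or limma-voom. Among all 20466 tested genes, 0% passed the adjusted threshold. An unadjusted p under 0.05 was reached by 4.23% that were higher and 3.89% that were lower in mutants, and every mutant lay above every control for 5.83% and below for 3.18%. The 7 genes overlapped between groups in all cases. DESeq2 called 1.44% of the 25286 genes it could adjust. A result of no call does not show equal levels, and the intervals bound what these libraries could miss. For 5 of the 7 genes, all but Hras and Braf, the 95% interval lay within 2-fold in either direction, which held for 13% of all tested genes. That share covers genes of every count level, and genes with counts like those of the 7 were not compared. The intervals of Hras, from 0.555 to 2.19-fold, and of Braf, from 0.541 to 2.05-fold, were the widest of the 7.

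Of Rras, Rras2 and Mras, the other RAS family genes reported, Rras2 had the largest log2 fold change in size. It was at 15.7, 19.6 and 46.0 CPM in the controls and at 6.29, 11.4, 8.35 and 4.65 CPM in the mutants. Every mutant lay below every control for Rras2, as for 3.18% of all tested genes. Its log2 fold change was -1.82 (-2.93 to -0.71), with an adjusted p of 0.422 in edgeR's quasi-likelihood test and 0.0515 in DESeq2, the smallest of the 19 alternatives, the largest being 1. Without control 3, which had the highest level, the log2 fold change was -1.18. Summed oligodendrocyte markers ranged from 2929 to 11188 CPM in controls and from 2068 to 3514 CPM in mutants. Of these markers, 6 of 7 were lower at an unadjusted p under 0.05 in edgeR, as were 3.89% of all tested genes. Of the OPC markers, 5 of 6 were higher at that threshold, as were 4.23% of all tested genes. The part of both marker lists in the Rras2 values was not tested. Mras and Rras overlapped between groups, with log2 fold changes of 0.49 and -0.57.

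The remaining lists of the pathway held no gene past the adjusted threshold in edgeR's quasi-likelihood test, and DESeq2 called only Etv4 and Spry4 among them. ERK output and feedback genes had 13 of 14 tested genes at a log2 fold change above 0, where 56.7% of all tested genes lay. Their median was 1.02, against 0.05 for the 7 kinase and RAS genes and 0.13 for all tested genes. Of the 14, 5 were higher with an unadjusted p under 0.05 (4.23% of all genes) and 5 were higher without overlap of the groups (5.83% of all genes). Spry4, which encodes an inhibitor of the pathway, was at 13.4, 8.26 and 8.30 CPM in controls and at 36.8, 36.3, 25.1 and 23.8 CPM in mutants, a log2 fold change of 1.61 (edgeR adjusted p = 0.359, DESeq2 adjusted p = 0.0161, the smallest of its alternatives, and 1 the largest). Etv5, an ETS transcription factor, was at 85.8, 63.4 and 10.1 CPM in controls and at 274, 192, 173 and 171 CPM in mutants, a log2 fold change of 1.93 (edgeR adjusted p = 0.440, from 0.0020 without a filter to 1 over its alternatives). With a library left out, this change lay between 1.46 (without control 3) and 2.44 (without control 1). Dusp6, the phosphatase that inactivates ERK, had a log2 fold change of 0.80 (edgeR adjusted p = 0.577), with mutant 4 at 139 CPM below control 2 at 170 CPM. Etv4 had a log2 fold change of 3.12 (edgeR adjusted p = 0.439, from 0.00104 without a filter to 1 over its alternatives). With a library left out, the value of Etv4 lay between 2.55 (without control 3) and 4.23 (without control 2, the highest control at 5.42 CPM). Spry2, at -0.08, had the lowest value of the list.

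Among all tested genes, 4.23% were higher and 3.89% lower at an unadjusted p under 0.05 in edgeR, with a median log2 fold change of 0.13. The counts per list below are to be read against these shares. Upstream, RAS GTPase-activating proteins and RAF inhibitors had 3 of 13 genes with an unadjusted p under 0.05, Spred1, Rasa3 and Nf1, all higher. Their median log2 fold change was 0.62. Spred1 had a log2 fold change of 1.31 (edgeR adjusted p = 0.491) and Rasal1, the strongest in the other direction, -1.02 (edgeR adjusted p = 0.643). Adaptors and exchange factors had none of 15, with Rasgrf2 at 0.95 and Rasgrp2 at -0.46. Scaffolds and chaperones had 2 higher and 1 lower of 19, with Ywhag at 1.13 and Lamtor2 at -1.22 (edgeR adjusted p = 0.520 for both). Enzymes of RAS lipid processing had 1 higher and 1 lower of 8, Fntb at 1.21 and Rce1 at -0.84. Kinases downstream of ERK had none of 7, with Rps6ka5 at 1.03 and Rps6ka1 at -0.91. Kinases of the other MAPK cascades had 1 lower of 13, Mapk13 at -1.25 (edgeR adjusted p = 0.488), and Mapk9 at 0.43 had the smallest p of the higher genes.

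**Figure D4:**
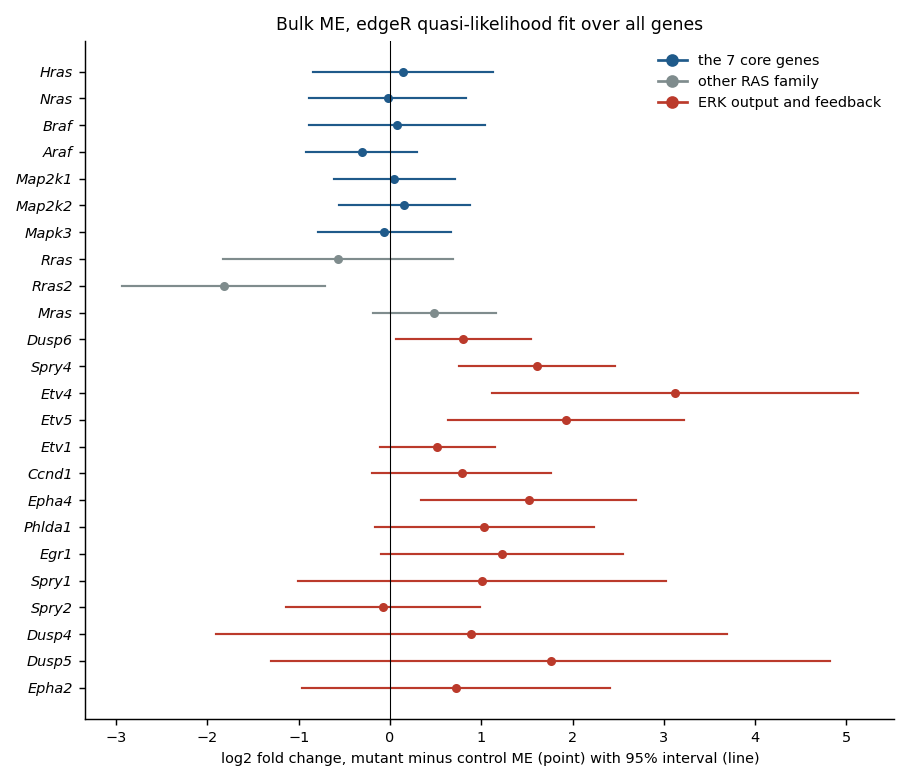
Log2 fold change of mutant over control ME (points) with 95% intervals (lines) from edgeR's fit over all genes, for the 7 genes in blue, Rras, Rras2 and Mras in grey and the 14 tested ERK output and feedback genes in red. The 7 genes lie between -0.31 and 0.16, with intervals that all include 0, Rras2 lies at -1.82, and 13 of the 14 output genes lie above 0.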

How the data were processed

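For the 10x library, the authors counted UMIs with Cell Ranger (2.0.1 in the submitters' processing notes, another release in the methods) and deposited raw UMI counts per gene and cell. For bulk Smart-seq2 libraries, the authors deposited raw read counts per Ensembl gene. The notes name GRCm38 and DESeq2, and the aligner, counter and strand setting are not given in the sources used here. Smart-seq2 reads carry no UMIs, so bulk counts are of reads and not of captured transcripts. A limit in counts therefore does not cover the error of counting transcripts. Symbols came from the single-cell gene list, and 0 count columns were left unused.

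The genes, lists and tests were chosen with earlier results of these data known. The test for bulk counts was that of edgeR 4.0.16 under R 4.3.3 (filterByExpr, TMM, quasi-likelihood F test, Benjamini-Hochberg over all tested genes, threshold 0.05), control against mutant without covariates, and levels are TMM-normalized CPM. A limit of 3 counts was 0.256 to 0.528 CPM per library. Library totals are in the report. Alternatives were DESeq2 1.42.0, limma 3.58.1 (voom, with and without library weights), other scalings and filters, a covariate of detected genes, the replicate number as block, and each library left out. Chosen once values were known were the newer quasi-likelihood fit of edgeR, Xist as covariate, the 5 libraries with Xist under 10 CPM, and the comparison of tanycyte-like cells without neuron-like cells.

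Cells were clustered in Seurat 5.3.0 (scale factor 10000, mean 0.02 to 8, dispersion at least 0.5, 4817 variable genes, 20 components, resolution 0.8). A cluster was named when at least 3 markers of a type reached 3 times their CPM in all other cells. Scrublet (scanpy 1.11.5) called 3 cells doublets (0.303%), too few for the call to be relied on, and all cells were kept. Single-cell alternatives were 10 or 30 components, resolution 0.4 or 1.2, every variable gene, cells without called doublets, means over cells, and thinning to 3000 UMIs.

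Genes were named by rule: the 7 genes, other members of their families, some of which are not reported here, from each other pathway list the gene with the smallest p in each direction, the 2 genes with the profile most like each member, and Dusp6, Spry4 and Etv5. Other names were chosen after their values were seen. The bulk steps were tested on counts simulated with the means, depths and spread of these libraries. The simulated counts held no differences in sex or cell makeup, and their outcome is not reported here. Intervals were computed in Python 3.11.15 with scipy 1.17.1, and plots drawn with matplotlib 3.10.9.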

Additional observations from a re-analysis of the deposited data

How the results depend on the processing

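None of the 7 genes was called under any of the 19 bulk alternatives, but small log2 fold changes changed sign, and the cause was not tested. Nras, at -0.03, became 0.0899 with library sizes alone, 0.12 with limma-voom, 0.0069 with at least 10 counts in every library, 0.0645 with Xist as covariate and 0.0033 in the 5 libraries without Xist. Braf became -0.61 with detected genes as covariate, -0.15 with Xist as covariate and -0.11 in the 5 libraries. Araf became 0.0263 and Mapk3 0.31 with detected genes as covariate. Mapk3 became 0.13 with library sizes alone and 0.011 with at least 10 counts. Map2k1 became -0.21 and Map2k2 -0.12 with library weights in limma-voom. With a library left out, the range was -0.15 to 0.44 for Hras, -0.36 to 0.32 for Nras, -0.18 to 0.55 for Braf, -0.46 to -0.08 for Araf, -0.15 to 0.27 for Map2k1, -0.10 to 0.35 for Map2k2 and -0.33 to 0.10 for Mapk3. The smallest adjusted p of a member over all alternatives was 0.343.

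Calls over all genes, 0 in edgeR's quasi-likelihood test, were 363 with DESeq2, 240 without a filter, 47 with limma-voom and library weights, 25 with edgeR's later method, 13 with at least 10 counts, 3 with library sizes alone, and 1 each with upper-quartile scaling and detected genes as covariate. With a library left out they ranged from 0 to 45, with 45 without control 1 and 16 without control 3. Pathway genes called were 2 with DESeq2 and 2 without a filter (Etv4 and Etv5). Marker genes called were 14 with DESeq2, 20 without a filter, 2 with library weights and, leaving out a library, 0 to 4. Library sizes alone moved the median log2 fold change of all genes from 0.13 to 0.25. Deviations of same-numbered libraries from their group means had correlations of -0.45, -0.01 and -0.23. With so few libraries per group, these values cannot decide whether the numbers pair the libraries. With the replicate number as block, 0 genes were called and Nras was at 0.0062. In tanycyte-like cells, Araf was at 172.5 CPM as a mean over cells, and the other levels stayed within their counting intervals. The set of cells named tanycyte-like was not the same in every clustering. It held 177 cells in the main one, 214 with 10 components, 227 with 30 components, and 226 at resolution 0.4 and with every variable gene. The ratios were computed for the main clustering alone, with ependymal-like cells among the other nucleated cells. Depth limits Braf, with 222 UMIs, in single cells. Without neuron-like cells, the ratio of tanycyte-like to other nucleated cells became 1.31 for Hras, 0.646 for Nras, 2.03 for Araf, 1.39 for Map2k1 and 0.759 for Mapk3. Only that of Hras passed 1, and the others of the 7 genes stayed on their side of it.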

Other observations

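The 2 assays placed the members of 2 of the 3 pairs in different order. Over the 10x library, Hras had 671 UMIs and Nras 558, and Map2k1 had 811 and Map2k2 995. In the control bulk libraries, Hras was at 3.87 CPM per kb against 11.3 CPM per kb for Nras, and Map2k1 was at 69.1 CPM per kb against 24.6 CPM per kb for Map2k2. Araf came before Braf in both assays, with 1106 against 222 UMIs and 42.01 against 1.53 CPM per kb. The lengths are those of all annotated exons of a gene merged. Without division by length, the control means were 14.4 CPM for Hras and 60.2 CPM for Nras. They were 234 CPM for Map2k1 and 139 CPM for Map2k2. The 10x library counts 3′ ends of transcripts from dissociated cells and the bulk libraries count reads along amplified cDNA of whole tissue, and the values were not tested against each other.

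Mapk13, a p38 kinase of another MAPK cascade, was at 45.4 CPM (36.1 to 56.4) in tanycyte-like cells against 7.58 CPM in the other nucleated cells. In bulk it was at 17.97, 28.5 and 19.3 CPM in controls and at 12.9, 7.82, 9.19 and 6.97 CPM in mutants (edgeR adjusted p = 0.488). Every mutant lay below every control, which held for 3.18% of all tested genes. Mapk13 was named because it had the smallest p among the lower genes of its list. Whether the bulk and single-cell values are related was not tested.

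Of the 29 sets of mutant values checked, those of the 7 genes and of the pathway genes named by rule, 0 had a library farther from the others than Dixon's limit for 4 samples, where chance gives about 1 in 20.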
